A study of Mus musculus with 61 samples.

Results

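The mitochondrially encoded transcripts were followed in whole mouse muscle, as every row of the count table whose symbol starts with mt-. That rule took 35 of 55011 genes, of which 13 were mRNAs and 22 were tRNAs. GENCODE annotates 37 genes on the mouse mitochondrial genome. The remaining 2, the ribosomal RNAs mt-Rnr1 and mt-Rnr2, were not analysed here, and the table held 0 rRNA rows.

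Gene counts came from 61 libraries in 22 groups. Wild-type C57BL/6J mice gave quadriceps and tibialis anterior muscle at rest and 1, 2 and 7 days after a bout of exercise, 3 libraries per group. In the acute depletion experiment, quadriceps came from Foxp3DTR+ mice, whose Foxp3 locus carries an IRES-GFP and the human diphtheria toxin receptor so that the toxin kills regulatory T cells, and from Foxp3DTR- controls. Both genotypes (DTR+ and DTR-) received diphtheria toxin. The libraries numbered 3 (DTR-) and 2 (DTR+) from sedentary mice, 3 per genotype on day 1 after exercise and 2 per genotype on day 7. A training experiment set 2 weeks of exercise against rest in the same 2 genotypes, again all given the toxin, 3 libraries per group. Trained, toxin-treated DTR+ mice further received IgG or a neutralising antibody to interferon-gamma for 1 week, 3 libraries each. Resting C57BL/6JN mice aged 24 months received the same antibodies, 2 libraries each, and their labels do not name the muscle.

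Mitochondrial DNA is a small circle that is transcribed from both strands into long precursors, which are then cut at the tRNAs that lie between the other genes. The mRNAs encode core subunits of the respiratory chain: complex I (mt-Nd1 to mt-Nd6 and mt-Nd4l), complex III (mt-Cytb), complex IV (mt-Co1, mt-Co2 and mt-Co3) and the ATP synthase (mt-Atp6 and mt-Atp8). All other subunits are encoded in the nucleus. Most mitochondrial mRNAs carry short poly(A) tails, and the tRNAs do not.

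The 13 mRNAs were sorted by their position relative to a stretch of mitochondrial DNA that has near-identical copies in the nuclear genome. On chromosome 1 (GRCm38 chr1:24611535-24616197, minus strand) 7 unprocessed pseudogenes matched mitochondrial bases 6390 to 11042 at 99.7% identity or more. Aligned copies covered all but the last few bases of 5 mRNAs (mt-Co2, mt-Atp6, mt-Co3, mt-Nd3 and mt-Nd4l), the last 483 of 1545 bases of mt-Co1 and the first 876 of 1378 bases of mt-Nd4. mt-Nd1, mt-Nd2, mt-Nd5, mt-Nd6 and mt-Cytb lie outside. mt-Atp8 lies within the span, most of it between the bases matched by Gm28661 and Gm10925. Copies were sought only among annotated transcripts, and none was aligned to mt-Atp8. The nuclear sequence between the pseudogenes was not searched, so a copy of mt-Atp8 there is not excluded. It is grouped with the 5 by position alone. The following 80-base stretches of 3 mRNAs and their copies, from GENCODE transcripts on GRCm38, are shown because reads from such stretches differ little or not at all between the mitochondrial gene and its copy. Capitals mark the base that differs, and the mt-Co2 pair does not differ.
mt-Co2 (chrM:7013-7092, plus strand): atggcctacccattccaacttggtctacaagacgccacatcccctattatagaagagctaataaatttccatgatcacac
Gm28661 (chr1:24615486-24615565, minus strand): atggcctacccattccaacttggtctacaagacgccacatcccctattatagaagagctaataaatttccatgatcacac
mt-Nd3 (chrM:9459-9538, plus strand): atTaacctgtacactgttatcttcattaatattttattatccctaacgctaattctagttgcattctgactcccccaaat
Gm28438 (chr1:24613040-24613119, minus strand): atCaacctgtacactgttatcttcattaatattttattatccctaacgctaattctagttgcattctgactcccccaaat
mt-Co1 (chrM:6390-6469, plus strand): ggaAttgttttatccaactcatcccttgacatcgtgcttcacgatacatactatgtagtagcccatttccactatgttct
Gm29216 (chr1:24616109-24616188, minus strand): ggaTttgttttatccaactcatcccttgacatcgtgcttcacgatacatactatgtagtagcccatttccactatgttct

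Across their full alignments, mt-Nd3 differed from Gm28438 only by T3C and mt-Co1 from Gm29216 only by A1066T, counted from the first base of each mitochondrial gene. The other 5 mRNAs aligned to a copy there were 100% identical to it over 294 to 876 bases.

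Levels differed between these positions. Per kilobase of transcript, the median over the 61 libraries was 21700 CPM (counts scaled by the library's total) for mt-Nd1, 10800 for mt-Co1, 8075 for mt-Cytb, 4303 for mt-Nd5, 2382 for mt-Nd4, 1364 for mt-Nd2 and 487 for mt-Nd6. The 6 mRNAs lying wholly inside the span of the copies had medians per kilobase of 4.002 (mt-Nd4l) to 36.0 (mt-Nd3). The lowest of the first 7 was 13.54-fold above the highest of the 6. The 6 together took 0.0933% of all mitochondrial mRNA counts, while mt-Nd1, mt-Co1 and mt-Cytb took 35.9%, 24.9% and 20.9%. mt-Nd6, the 1 mRNA encoded on the opposite strand from the rest, took 0.369%. It shares 14 bases with mt-Nd5, and whether counting used strand is not given in the sources used here.

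**Figure D1:**
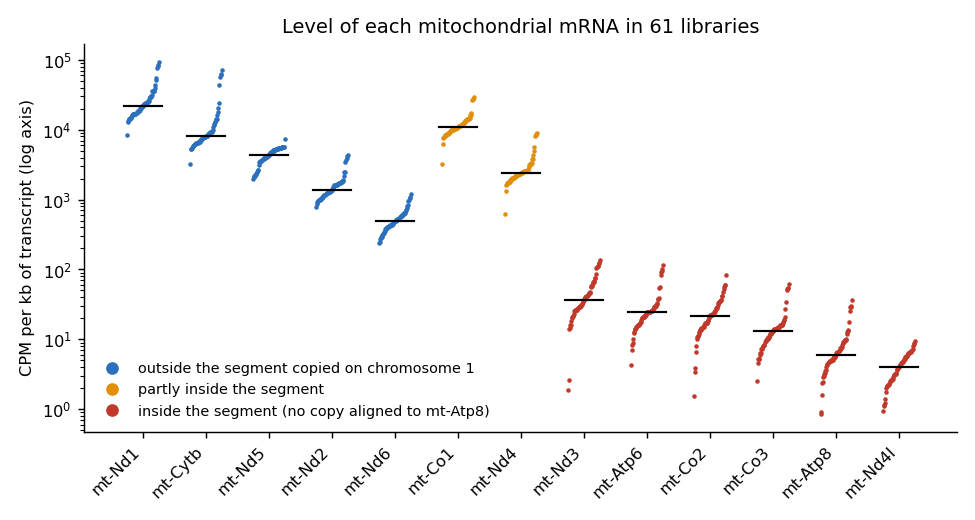
CPM per kilobase of transcript (log axis) of the 13 mitochondrial mRNAs, with 1 point per library and the median over 61 libraries as a line (blue outside the segment copied on chromosome 1, orange partly inside, red inside); the 1 library with mt-Atp8 at 0 is not drawn. The 6 mRNAs inside the segment, of which mt-Atp8 had no aligned copy among annotated transcripts, have the lowest medians, 4.002 to 36.0.

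Most of the copies drew counts of the same order as the mRNA they match. Over all libraries mt-Atp6 had 9611 counts and its copy Gm10925 had 11800, a median ratio of 0.811 per library. For mt-Co2 over Gm28661 the median ratio was 1.33, for mt-Co3 over Gm28437 it was 0.841 and for mt-Nd4l over Gm10222 it was 0.667. mt-Nd3 stood apart at 15.6 times Gm28438. By contrast, mt-Co1 and mt-Nd4, only partly copied, had medians of 688 and 1012 times their copies. How reads that match several places were treated is not given in the sources used here, so the values of the 6 are uncertain as levels, and so is how much of mt-Co1 and mt-Nd4 was counted. More diverged copies also exist. Gm13340 on chromosome 2 matches the whole of mt-Co1 at 97.6% and had a median of 88 counts against 119176 for mt-Co1.

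The tRNAs took few counts, 48080 of the 466546118 in the table. Of the 22 tRNA rows, 2 held 0 counts in all 61 libraries, mt-Td (aspartate) and mt-Tk (lysine). A count of 0 allows up to 3 counts, which is 0.208 CPM in the deepest library and 0.893 CPM in the shallowest; this covers counting error alone. Both lie inside the span of the copies, as do mt-Ts1, mt-Tg and mt-Tr, which had counts in 53, 54 and 28 libraries. No annotated transcript was aligned to mt-Td or mt-Tk as a copy. Sequence between the annotated pseudogenes was not searched, so a nuclear copy of either is not excluded. mt-Tl1 (leucine), mt-Tq (glutamine) and mt-Tm (methionine) together held 68.8% of tRNA counts. mt-Tl1 and mt-Tq, the most abundant pair, and mt-Td and mt-Tk, the pair at 0 counts, are given 5′ to 3′ on the gene's strand; no base is marked.
mt-Tl1 (chrM:2676-2750, plus strand): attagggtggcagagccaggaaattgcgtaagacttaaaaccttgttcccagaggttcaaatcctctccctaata
mt-Tq (chrM:3772-3842, minus strand): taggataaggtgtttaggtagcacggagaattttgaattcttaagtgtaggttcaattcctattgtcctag
mt-Td (chrM:6942-7011, plus strand): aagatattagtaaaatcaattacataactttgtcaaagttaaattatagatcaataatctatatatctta
mt-Tk (chrM:7700-7764, plus strand): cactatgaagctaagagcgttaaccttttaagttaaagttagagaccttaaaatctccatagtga

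Libraries held 3359683 to 14445336 counts and 14701 to 26596 detected genes. The muscle actin Acta1 (15760 to 107100 CPM) and creatine kinase Ckm (8378 to 41460 CPM) were abundant in every library. Foxp3, at the targeted locus, had 0 counts in 16 of 19 DTR+ and 7 of 14 DTR- libraries and at most 2 and 9 counts, too few to check depletion. Libraries differed in how long nuclear transcripts fared against short ones. The contrast used here is the median log2 deviation of 452 genes of at least 4000 bases minus that of 1159 genes of at most 1000 bases, and it ran from 0.03 to 0.24 in the 24 wild-type libraries. It was -1.24 to -0.94 in resting DTR- and -1.34 to -1.30 in resting DTR+ libraries of the acute experiment, and -0.44 to -0.12 in both genotypes at day 1. Several mitochondrial transcripts moved with this contrast.

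The share of counts on the 13 mRNAs was 3.23% to 23.5%, with a median of 6.06%. It lay between 4 and 10% in 54 of the 61 libraries. In wild-type sedentary mice it was 4.92% ± 0.148 (SD, n = 3) in quadriceps and 5.84% ± 0.259 (n = 3) in tibialis anterior. The share exceeded 20% in 3 libraries, all DTR+ of the acute experiment. The libraries of that experiment had 23.5% and 21.4% in resting DTR+ mice against 11.98%, 9.36% and 7.89% in resting DTR- mice. At day 1 the shares were 6.06%, 6.30% and 5.52% in DTR+ and 5.89%, 5.44% and 6.55% in DTR- mice. At day 7 they were 19.98% and 21.8% in DTR+ against 8.68% and 8.91% in DTR- mice. Thus the genotypes did not overlap at rest or day 7 and did overlap at day 1. In bulk muscle, fewer cells of a type and less RNA per cell cannot be told apart.

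**Figure D2:**
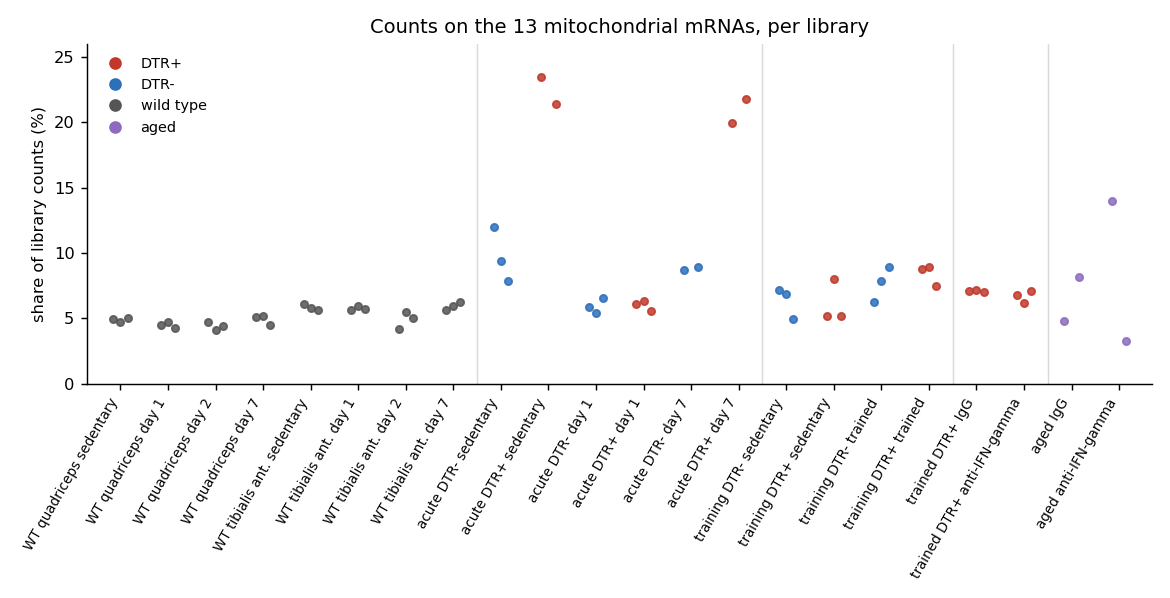
Share of library counts on the 13 mitochondrial mRNAs (vertical axis, %) in each of 61 libraries, by group. The 4 libraries of DTR+ mice at rest and at day 7 of the acute experiment sit between 19.98 and 23.5%, above all others.

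In the resting comparison of genotypes, 10 of the 13 mRNAs were higher in DTR+ muscle by edgeR's quasi-likelihood test (Benjamini-Hochberg adjusted p under 0.05 over all 14245 genes tested), and none was lower. Over all genes 12.1% were called higher and 26.6% either way. The median log2 fold change of the 13 was 1.41, against -0.06 over all genes. mt-Cytb, the complex III subunit, had 81186 and 69598 CPM in DTR+ libraries and 27742, 20374 and 16230 CPM in DTR- libraries. The groups did not overlap, and its log2 fold change was 2.12 ± 0.18 (SE, edgeR adjusted p = 1.34e-07).

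For mt-Nd1 of complex I the values were 90214 and 81529 CPM against 52800, 41737 and 33867 CPM, a log2 fold change of 1.31 ± 0.15. mt-Co1, the catalytic subunit of complex IV, had 42899 and 42500 CPM against 24859, 19997 and 18392 CPM, a change of 1.32 ± 0.13. Neither overlapped between genotypes. The subunits mt-Nd2 (1.48), mt-Nd4 (1.37) and mt-Nd6 (0.91) were also called higher, as were mt-Atp6 (1.59), mt-Atp8 (1.68), mt-Co2 (1.41) and mt-Co3 (1.59) within the span of the copies.

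mt-Nd5, the longest of the mRNAs at 1824 bases, did not follow the others. It had 3635 and 3842 CPM in DTR+ and 4552, 3949 and 4264 CPM in DTR- libraries, so its CPM was lower in both DTR+ libraries. After scaling by TMM factors its log2 fold change was 0.12 ± 0.20 (edgeR adjusted p = 0.707), and without them it was -0.19. mt-Nd3, with 9.63 and 10.6 against 14.1, 7.22 and 7.04 CPM, had a change of 0.40 ± 0.46 and its groups overlapped.

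With each library's trend of nuclear genes on length and GC content removed, 3 of the 13 mRNAs were called at rest, with mt-Cytb higher (1.05 ± 0.30, edgeR adjusted p = 0.0139) and mt-Nd6 (-1.17) and mt-Nd3 (-1.64) lower. mt-Atp6, mt-Atp8 and mt-Co2 changed sign with it. The median over all genes was then -0.56, and 16.7% of all genes were called either way. Resting DTR+ libraries also had fewer detected genes, 14701 and 14745 against 16508 to 16799. Of 8 fast-fibre markers 6 were higher and 1 lower in them, and of 8 slow-fibre markers 2 were higher. The part of transcript length, detection or fibre makeup in the genotype difference was not tested.

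At day 7 the picture recurred in other libraries, again with 10 of 13 mRNAs higher in DTR+ mice, where 11.3% of all genes were called higher and 25.3% either way. mt-Cytb had 65662 and 72432 CPM against 13475 and 18651 CPM, a log2 fold change of 2.39 ± 0.21 (edgeR adjusted p = 2.72e-07). mt-Co1 had 41269 and 45657 CPM against 21479 and 20483 CPM, a change of 1.34 ± 0.15. mt-Nd5 again went its own way, at 4098 and 4266 CPM in DTR+ against 10441 and 4832 CPM in DTR- libraries. Its change of -0.58 ± 0.22 missed the threshold (edgeR adjusted p = 0.0632), and 1 library decided it. Without replicate 1 of the DTR- group it was 0.05, and without replicate 3 it was -1.02 (adjusted p = 0.000187). mt-Nd3 had a change of -0.94, which became 0.41 without that replicate 1 and -1.67 without replicate 3 (adjusted p = 0.01). The length contrast was -1.38 and -1.34 in DTR+ and -0.62 (replicate 1) and -0.99 (replicate 3) in DTR- libraries. Of 8 fast-fibre markers 5 were called higher in DTR+ mice and 1 lower. Of markers of other cell types, 3 of 5 red cell, 3 of 6 macrophage and 2 of 4 tested T and NK cell markers were called higher, 1 macrophage marker was lower and 2 of 4 tested Schwann cell markers were lower. Their part in the mitochondrial values was not tested. With the trend removed, 2 mRNAs were called, mt-Cytb higher (1.55 ± 0.34) and mt-Nd3 lower (-2.36 ± 0.44). Of all genes 7.49% were then called, at a median of -0.11.

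At day 1 no mRNA was called between the genotypes, and edgeR called 0% of all 14245 genes; 0 of the mRNAs and 280 of all genes had an unadjusted p under 0.05, and DESeq2 called 0 mRNAs as well. The log2 fold changes of the 7 mRNAs outside or only partly inside the span of the copies ran from -0.12 to 0.17. mt-Cytb had 9413, 9927 and 8659 CPM in DTR+ and 11112, 9287 and 10597 CPM in DTR- libraries.

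Within DTR- mice, 8 mRNAs were lower at day 1 than at rest, where 8.24% of all genes were called lower and 16.4% either way. mt-Nd1 had 23350, 20634 and 24611 CPM at day 1, below all 3 resting libraries given above, a log2 fold change of -1.16 ± 0.14 (edgeR adjusted p = 1.85e-05). mt-Cytb fell by 1.31, mt-Nd2 by 1.19 and mt-Nd4 by 1.05 on the log2 scale. mt-Nd5 had 5638, 7013 and 8663 CPM at day 1, all above the resting libraries, with a change of 0.48 ± 0.18 that was not called (adjusted p = 0.0773). mt-Co2, at 24.1, 23.9 and 29.0 CPM against 22.8, 14.3 and 17.7 CPM at rest, had a change of 0.23 ± 0.20.

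Within DTR+ mice, 10 mRNAs were lower and mt-Nd5 was higher at day 1 than at rest, where 18.1% of all genes were called lower and 24.3% higher, 42.4% in all. The fall was 3.55 ± 0.19 for mt-Cytb, 2.61 for mt-Nd2, 2.44 for mt-Nd1, 2.40 for mt-Nd4, 2.04 for mt-Co1 and 1.86 for mt-Nd6 on the log2 scale. In the same comparison 4 of 6 markers of fibro-adipogenic progenitors, 3 of 6 adipocyte and 5 of 8 fast-fibre markers were called lower, and 1 fast-fibre and 2 of 5 satellite cell markers higher. The day 1 libraries had 23450 to 26524 detected genes against 14701 and 14745 at rest. The part of these in the mitochondrial values was not tested. mt-Nd5 had 7764, 7931 and 7812 CPM at day 1 against 3635 and 3842 CPM at rest, a rise of 0.53 ± 0.21 (edgeR adjusted p = 0.0419) on the TMM scale. The call was lost when any 1 of the 5 libraries was left out (adjusted p of 0.0603 to 0.159), and the direction was kept. mt-Nd3 had 19.4, 20.5 and 14.6 CPM against 9.63 and 10.6 CPM, a change of 0.30 ± 0.45 that was not called.

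The day 1 response itself differed between genotypes for 9 mRNAs, each more negative in DTR+ mice; for mt-Co2 this set a fall in DTR+ mice against the uncalled 0.23 in DTR- mice. In that test edgeR called 6.54% of all genes in that direction and 15.3% either way. mt-Cytb had the largest difference among the 9, -2.24 ± 0.24 (edgeR adjusted p = 7.90e-06), and mt-Nd5 had 0.06 ± 0.27. This test takes the genotype difference at day 1 minus that at rest, so it is not separate from the resting comparison. Those differences were -0.12 and 2.12 for mt-Cytb and 0.03 and 1.31 for mt-Nd1. With the length and GC trend removed, the day 1 calls became 3 in DTR- mice, all higher (mt-Nd5, mt-Nd3 and mt-Co2), and 6 in DTR+ mice. Of those 6, mt-Nd5 (1.88), mt-Nd6 (1.30), mt-Co2 (1.52) and mt-Nd3 (3.45) were higher and mt-Cytb (-1.64, adjusted p = 2.62e-05) and mt-Nd4 (-0.76) lower. In the test of the difference, 1 mRNA was then called, mt-Nd3. Removal of the trend moved the median of all genes to 0.79 in DTR- and 1.30 in DTR+ mice. Of all genes 28.2% were then called in DTR- mice, 52% in DTR+ mice and 3.63% in the test of the difference. mt-Cytb in DTR- mice was then at -0.34 and not called (adjusted p = 0.343).

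**Figure D3:**
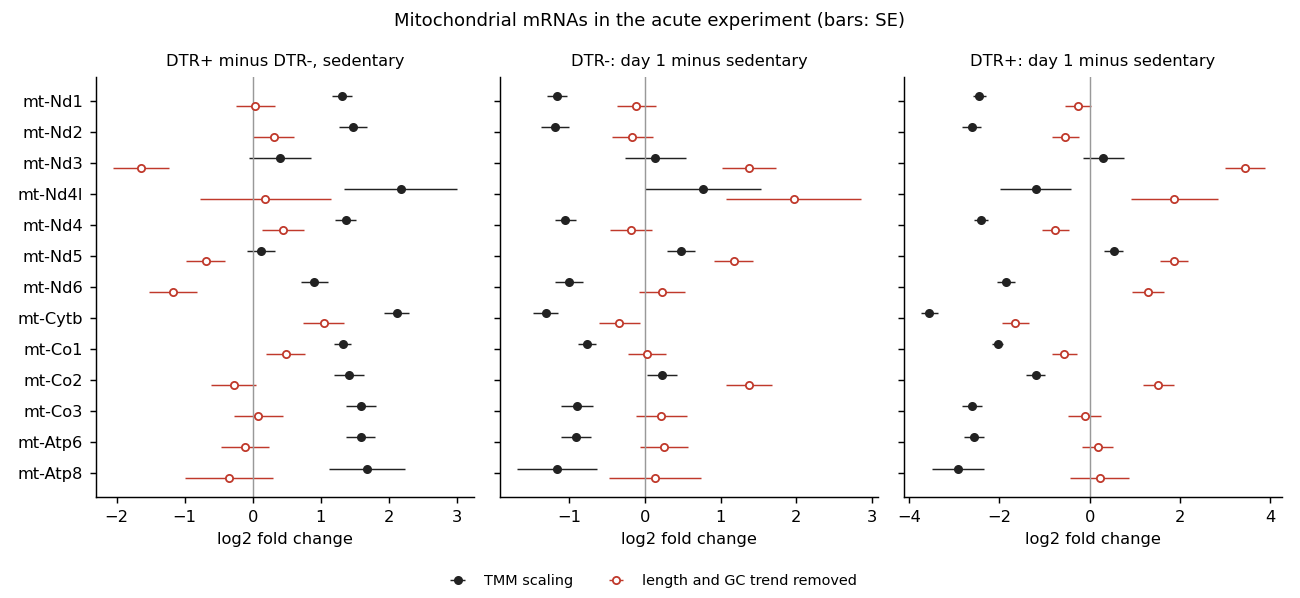
Log2 fold change ± SE of the 13 mitochondrial mRNAs in 3 comparisons of the acute experiment, with TMM scaling (filled) and with the length and GC trend removed (open). mt-Cytb has the lowest value in the DTR+ day 1 panel under both, at -3.55 and -1.64, and mt-Nd5 lies above 0 under both in the day 1 panels.

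Back at day 7, no mRNA was called against rest in either genotype; 4 in DTR- mice and 0 in DTR+ mice had an unadjusted p under 0.05, and DESeq2 called mt-Nd5 in DTR- mice. Over all genes 0.00702% and 1.01% were called, and 0.0772% in the test of the difference between genotypes, which called 0 mRNAs with edgeR and DESeq2 and had 1 at an unadjusted p under 0.05. mt-Nd5 had a change of 0.73 in DTR- mice, carried by replicate 1. Without replicate 3, leaving that library alone in its group and assumed to vary like the others, 2 mRNAs were called.

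Over the 14 tested tRNAs the median log2 fold change had the sign of that of the mRNAs, at 1.21 in resting DTR+ against DTR- mice, 1.08 at day 7 and -2.11 at day 1 in DTR+ mice. mt-Tq, read from the strand opposite to its neighbours mt-Ti and mt-Tm, had 139 and 114 CPM in resting DTR+ libraries, 67.6, 59.8 and 32.7 CPM in resting DTR- libraries and 9.56 to 14.2 CPM in all 6 libraries at day 1. Its log2 fold change at day 1 was -3.99 ± 0.26 in DTR+ and -2.56 ± 0.24 in DTR- mice (edgeR adjusted p = 7.72e-10 and 1.03e-06). mt-Tl1, next to mt-Nd1, instead had 21.7 and 20.8 CPM in resting DTR+, 12.9, 15.9 and 14.3 CPM in resting DTR- and 20.6 to 40.4 CPM at day 1, and was not called in any comparison. Of 14 tRNAs tested in this experiment, 5 were higher in resting DTR+ mice, 2 at day 7, and 10 (DTR+) and 6 (DTR-) were lower at day 1, where 12.1%, 11.3%, 18.1% and 8.24% of all genes were called in those directions. mt-Te was called in all 4 of these comparisons, as was mt-Tq. With the trend removed, the calls that remained among these were those of mt-Tq at day 1 (-1.33 in DTR- and -0.82 in DTR+ mice). Reads of a tRNA and of an uncut precursor that spans it cannot be told apart in these counts.

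The make-up of the mitochondrial mRNA pool differed between libraries far more than within the wild-type mice. mt-Nd5 made up 14.2 to 17.6% of it in the 24 wild-type libraries and 1.55 to 41.4% over all 61. mt-Cytb made up 14.1 to 16.5% and 11.6 to 35.2%. In resting DTR+ mice mt-Nd5 took 1.55% and 1.80% while mt-Cytb took 34.6% and 32.5%. In resting DTR- mice mt-Nd5 took 3.80%, 4.22% and 5.41% and mt-Cytb 23.2%, 21.8% and 20.6%. At day 1 all 6 libraries lay at 9.56 to 14.2% for mt-Nd5 and 15.5 to 18.9% for mt-Cytb, closer to the wild-type ranges. In 11 libraries mt-Nd5 was under 7%, and these were the same 11 whose length contrast was under -0.8, limits chosen after the values were seen. They were the 5 resting and the 2 DTR+ day 7 libraries of the acute experiment, replicate 3 of DTR- at day 7, replicate 2 of sedentary DTR+ in the training experiment, and replicate 3 of IgG and replicate 1 of anti-interferon-gamma in aged mice.

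**Figure D4:**
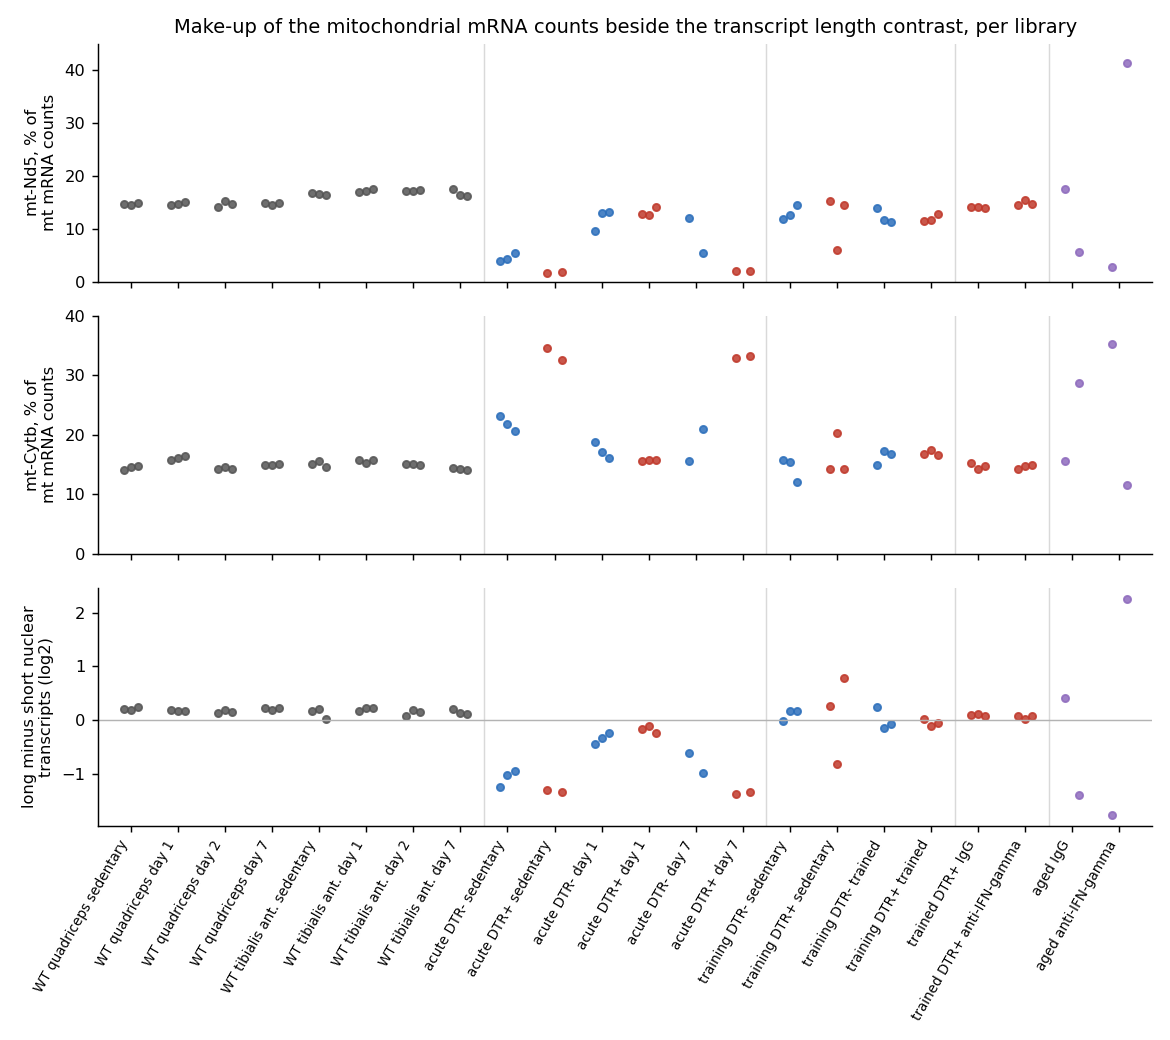
Percent of mitochondrial mRNA counts from mt-Nd5 (top) and mt-Cytb (middle), and the contrast of long minus short nuclear transcripts in log2 units (bottom), per library by group (grey wild type, blue DTR-, red DTR+, purple aged). Libraries with a contrast under -0.8 have under 7% mt-Nd5.

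In wild-type mice 1 mRNA was called after exercise. In quadriceps at day 1, mt-Co1 was the 1 mRNA called lower, where 0.145% of all genes were, and 0.582% either way. It had 12928, 13414 and 12225 CPM against 15283, 15418 and 15267 CPM at rest, without overlap, and a log2 fold change of -0.23 ± 0.05 (edgeR adjusted p = 0.0215). The call was lost with the length and GC trend removed and when any 1 of replicates 16 and 19 at day 1 or 5, 6 and 7 at rest was left out. At day 2 all 7 mRNAs outside or only partly inside the span of the copies lay below rest in both muscles, by 0.09 to 0.39 in quadriceps and 0.16 to 0.48 in tibialis anterior on the log2 scale, and edgeR called none. Of the 13 mRNAs 6 in each muscle had an unadjusted p under 0.05, DESeq2 called 0, and 0.299% and 0.063% of all genes were called. mt-Co1 had 12138, 15562 and 15947 CPM in tibialis anterior at day 2 against 18595, 17832 and 17602 CPM at rest, a change of -0.28 (edgeR adjusted p = 0.185). Without replicate 14 of tibialis anterior at day 2, 1 mRNA was called. At day 7 and in tibialis anterior at day 1 none was called by edgeR or DESeq2. Unadjusted p was under 0.05 for 0 in quadriceps at day 7, 2 in tibialis anterior at day 7 and 0 in tibialis anterior at day 1, and 0.214%, 0.0158% and 0.0552% of all genes were called. The comparisons of days share the resting libraries of their muscle.

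Between the resting muscles, 4 mRNAs were lower in quadriceps than in tibialis anterior, where 0.716% of all genes were called lower and 1.3% either way. mt-Nd5 had 7319, 6880 and 7461 CPM in quadriceps and 10316, 9599 and 9210 CPM in tibialis anterior, a log2 fold change of -0.43 ± 0.07 (edgeR adjusted p = 0.00046). mt-Nd4 (-0.37), mt-Cytb (-0.31) and mt-Co1 (-0.24) were called too. mt-Nd1 had 16001, 14275 and 15660 CPM against 17550, 16211 and 15954 CPM, overlapping, with a change of -0.12. With the animal number as a block, mt-Co1 was lost (adjusted p = 0.0643) and the other 3 remained. Without quadriceps replicate 5 or 6, or tibialis anterior replicate 5, 1 was called, and without tibialis anterior replicate 6, 2 were called. With the length and GC trend removed 0 were called, at log2 fold changes of -0.24 to -0.45 for these 4, and 0.514% of all genes were called.

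Of 70 tested nuclear subunits of the respiratory chain and ATP synthase, 20 were also lower in quadriceps and 0 higher, with a median of -0.24. Among them were Atp5a1, the alpha subunit of the ATP synthase, at -0.38 ± 0.05, and Cox4i1 of complex IV, at -0.35 ± 0.06. None of the 70 was called with the trend removed. Fibre-type genes differed at the same time: the slow myosin Myh7 had 150.9 to 277.4 CPM in quadriceps and 3.79 to 6.53 CPM in tibialis anterior, and Myh1, a fast myosin, had 3368 to 3672 and 7712 to 9577 CPM. Myh4, another fast myosin, went the other way, at 37430 to 40790 and 31670 to 34470 CPM. Over the lists, 7 of 8 slow-fibre markers were called higher in quadriceps, and of 8 fast-fibre markers 1 was called lower, with a median of 0.17. The part of fibre makeup in the mitochondrial values was not tested. The response to exercise did not differ between the muscles for any mRNA at day 1, 2 or 7 (edgeR and DESeq2 called 0, with 0 at an unadjusted p under 0.05), where 0.0434%, 0.00724% and 0.0796% of all genes were called.

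Training gave no called mRNA in either genotype. In DTR+ mice mt-Co1 had 21915, 26418 and 21388 CPM after training against 12389, 18099 and 13212 CPM at rest. Its log2 fold change was 0.61 ± 0.20 (edgeR adjusted p = 0.135). mt-Nd5 had 10053, 10474 and 9581 against 7849, 4798 and 7519 CPM, a change of 0.56 ± 0.16 (adjusted p = 0.0653). mt-Nd3 had 43.5, 39.3 and 26.2 against 20.3, 11.2 and 16.1 CPM, a change of 1.18 ± 0.31 (adjusted p = 0.0507). Over all genes 2.21% were called, 3 of the 11 tested mRNAs had an unadjusted p under 0.05, and DESeq2 called mt-Nd3 and mt-Nd5.

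The outcome changed when 1 library, replicate 2 of the sedentary DTR+ group, was left out. It had 17342 detected genes against 22079 and 21186 in its group, a length contrast of -0.81 against 0.27 and 0.78, and 16165 CPM of mt-Cytb against 7291 and 7368 CPM. Without it, 4 mRNAs were called higher after training: mt-Co1 (0.91, edgeR adjusted p = 0.00224), mt-Cytb (1.01), mt-Nd1 (0.66) and mt-Nd5 (0.43). The trained DTR+ libraries had length contrasts of -0.115 to 0.013, below both sedentary libraries that remained. This fit was not repeated with the length and GC trend removed. Without replicate 3 of the trained DTR+ group, mt-Nd3 alone was called (1.40). In DTR- mice mt-Co1 had 17385, 21827 and 22598 CPM after training against 16685, 15977 and 11801 CPM at rest. Its change was 0.42 (edgeR adjusted p = 0.959). There 1 mRNA had an unadjusted p under 0.05, DESeq2 called 0 and 0.103% of all genes were called. The difference between the genotypes' training responses was called for 0 mRNAs by edgeR and by DESeq2, with 1 at an unadjusted p under 0.05 and 0.27% of all genes called. Trained DTR+ and DTR- mice did not differ in a called mRNA either, with 11 of 11 higher in DTR+ by 0.08 to 0.28 and 0 at an unadjusted p under 0.05 (0.89% of all genes called, DESeq2 0 mRNAs). At rest the genotypes differed in 0 mRNAs by edgeR and DESeq2, with 1 at an unadjusted p under 0.05 and 0.0477% of all genes called.

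**Figure D5:**
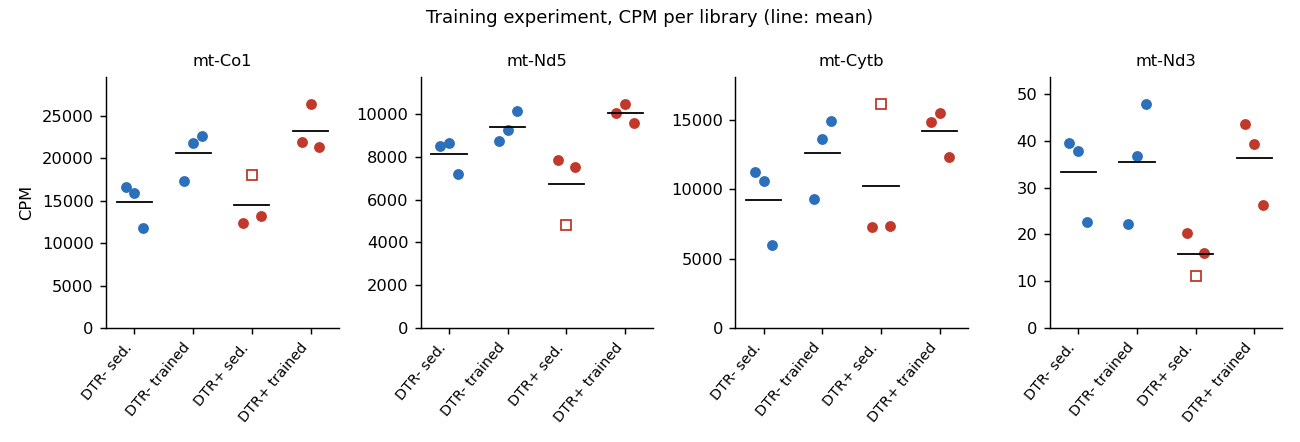
CPM of mt-Co1, mt-Nd5, mt-Cytb and mt-Nd3 in each library of the training experiment, with the group mean as a line. The open square is replicate 2 of the sedentary DTR+ group, which lies above its group for mt-Co1 and mt-Cytb (16165 CPM) and below it for mt-Nd5 (4798 CPM) and mt-Nd3.

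In trained DTR+ mice, neutralising interferon-gamma left the 7 more abundant mRNAs within 0.11 of the IgG group on the log2 scale, all 7 slightly lower. mt-Co1, with 20024, 19079 and 21969 CPM against 20922, 22020 and 22919 CPM under IgG, overlapped and had a change of -0.11 (edgeR adjusted p = 0.639). edgeR and DESeq2 called 0 of the 12 tested mRNAs, 0 had an unadjusted p under 0.05, and 1.35% of all genes were called.

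The aged libraries differed widely within each group. mt-Cytb had 7487 and 23367 CPM under IgG and 49114 and 3754 CPM under anti-interferon-gamma. mt-Nd5 ran the other way within each group, at 8430 and 4547 CPM and at 3957 and 13377 CPM. The library with 49114 CPM of mt-Cytb had a length contrast of -1.77 and that with 3754 CPM had 2.26. The fitted changes were 1.04 for mt-Cytb and 0.45 for mt-Nd5. edgeR and DESeq2 called 0 mRNAs, 0 had an unadjusted p under 0.05 and 0% of all genes were called. Leaving out replicate 1 of the anti-interferon-gamma group turned the mt-Cytb change to -2.41, and leaving out replicate 3 turned that of mt-Nd5 to -0.21.

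The nuclear genes that maintain and express mitochondrial DNA, and the biogenesis factors, had calls in both directions between the resting genotypes. Calls in each of these lists lay close to the 26.6% of all genes called either way there. They are therefore not read as a result about these genes. In resting DTR+ against DTR- mice of the acute experiment, 4 of 21 tested genes of mitochondrial transcription and replication were called higher and 2 lower, against 26.6% of all genes called either way. Tfam, which packages and activates mitochondrial DNA, was higher (0.67, edgeR adjusted p = 0.012), Tefm, the transcription elongation factor, was higher (1.31) and Ssbp1, the single-strand binding protein, was higher (0.94). Polrmt, the mitochondrial RNA polymerase, had -1.01 (adjusted p = 0.056). Of 11 biogenesis factors 1 was higher and 2 lower (Esrra and Nrf1), and Ppargc1a, the coactivator PGC-1 alpha, had -0.60 (adjusted p = 0.0542). Of 27 genes of mitochondrial RNA processing and turnover 4 were higher, among them Slirp (1.30) and Grsf1 (1.28), RNA-binding proteins of the organelle, and 3 were lower, among them Fastk (-2.71). Of the nuclear respiratory subunits 59 of 70 were higher and 3 lower, with a median of 1.00. With the length and GC trend removed, 2 were higher and 3 lower. The transcription and replication genes then had 1 higher and 3 lower, the RNA processing genes 0 higher and 6 lower and the biogenesis factors 0 higher and 3 lower. Under this setting 16.7% of all genes were called either way, and their median was -0.56.

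The comparison of day 1 with rest in DTR+ mice shares its 2 resting libraries with the one above, where they enter with the opposite sign. Of the nuclear subunits 64 of 70 were lower and 1 higher, at a median of -1.75, with 42.4% of all genes called. Of the transcription and replication genes 8 were lower and 5 higher, with Polrmt higher (1.94, edgeR adjusted p = 0.000443) and Tfam at -0.43 (adjusted p = 0.0708). Of the RNA processing genes 6 were higher and 6 lower, and of the biogenesis factors 6 were higher and 0 lower, among them Ppargc1a (0.64, adjusted p = 0.0274). With the trend removed, where the median of all genes was 1.30, 24 of the nuclear subunits were higher and 7 lower. The transcription and replication genes then had 11 higher and 0 lower, the RNA processing genes 15 and 0, and the biogenesis factors 9 and 0. Under this setting 52% of all genes were called. The list medians were 0.38 for the nuclear subunits, 1.17 for transcription and replication, 1.18 for RNA processing and 1.89 for the biogenesis factors. In trained against resting DTR+ mice none of the 70 was called, and Ppargc1a had 0.88 (adjusted p = 0.0738), Tfam 0.50 and Polrmt 0.30. In the antibody comparison Rexo2, an exonuclease that degrades short mitochondrial RNA, was higher (1.36, edgeR adjusted p = 0.0084). Elac2, which cuts the 3′ ends of tRNAs out of the precursors, was higher too (1.05). Both were named by smallest p, and 1.35% of all genes were called there. The gene lists were not refitted with the trend removed for this comparison.

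The chromosome 1 copies were called in the same comparisons. In resting DTR+ mice 5 of 6 tested were higher, where 12.1% of all genes were. At day 1 in DTR+ mice 5 were lower, where 18.1% of all genes were. With the length and GC trend removed, 0 were called at rest, where 16.7% of all genes were. In DTR+ mice at day 1, 2 were then higher and 0 lower, where 52% of all genes were called. The median of the copies there was 0.71, against 1.30 over all genes. Gm10925 had 1.55 at rest beside 1.59 for mt-Atp6, and -2.32 at day 1 beside -2.57. The exception in both was Gm28438, the copy of mt-Nd3, which like mt-Nd3 was not called.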

How the data were processed

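Raw gene counts were deposited by the authors; per the submitters' processing notes reads were aligned to mm10 with STAR 2.7.3a and counted with featureCounts. Per the labels' protocols, libraries were made from 2 ng of polyA RNA. The sources used here do not give the strand setting, the annotation or the treatment of multi-mapping reads. Each experiment was fitted alone (wild-type days per muscle, muscle comparisons over all 24 wild-type libraries) with edgeR 4.0.16 in R 4.3.3: filterByExpr (minimum count 10, minimum total 15), TMM factors, quasi-likelihood F tests on group means, Benjamini-Hochberg over all genes, called under 0.05. SE is the absolute log2 fold change over the square root of F. CPM are counts over library total. Overlap of groups was looked at for mitochondrial rows only, so how often other genes separate is not known and non-overlap adds nothing to a test. p-values measure the spread between libraries, which the DTR and aged labels do not say came from separate animals. The edgeR fit was tested on simulated counts with a fixed spread and no trend on length or GC. How it fares under such a trend was not tested. Alternatives were DESeq2 1.42.0, no scaling, scaling without mitochondrial rows, no filter, removal of a per-library spline trend on length and GC of nuclear genes, a replicate block, fits of only the compared groups and leaving out each replicate. Copies were found with blastn 2.17.0 among GENCODE vM21 transcripts (GRCm38, the mm10 build) at 95% identity or more over at least 50 bases. All 13 mRNAs could be named, tRNAs where tested, and up to 4 genes of each other list by smallest p, with Ppargc1a, Tfam and Polrmt always given. Members and lists were chosen with earlier results of these data known. Wild-type quadriceps and tibialis anterior carry the same animal numbers, taken to be the same animals, so the block pairs them; deviations of the 12 pairs correlated at -0.03 to 0.05.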

Additional observations from a re-analysis of the deposited data

Results flagged for a closer look

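In the acute experiment the day 1 response (day 1 minus rest) differed between DTR+ and DTR- mice by edgeR's interaction test for 10 of the mitochondrial transcripts, each more negative in DTR+ mice. The difference in log2 fold change was -2.24 for mt-Cytb, -1.71 for mt-Co3, -1.66 for mt-Atp6, -1.42 for mt-Nd2, -1.42 for mt-Co2 and -1.35 for mt-Nd4. It was -1.28 for mt-Nd1, -1.28 for mt-Co1, -0.85 for mt-Nd6 and -1.42 for the tRNA mt-Tq. None of these 10 was called once the length and GC trend was removed. The interaction is the genotype difference at day 1 minus that at rest, so it is not separate from the resting comparison. No mitochondrial transcript was called between the genotypes at day 1. Dixon's criterion for a library far from its group was not applied, since every group had under 4 libraries.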

How the results depend on the processing

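Removing each library's trend on transcript length and GC changed the results most, and the cause was not tested. It left 0 called mRNAs for quadriceps at day 1 and for the resting muscles, 3 for the resting genotypes, 2 for the genotypes at day 7, 3 at day 1 in DTR-, 6 at day 1 in DTR+ and 1 for the difference in day 1 response. In the same order from the resting genotypes on, 16.7%, 7.49%, 28.2%, 52% and 3.63% of all genes were called. The median of all genes moved to -0.56, -0.11, 0.79, 1.30 and 0.45. Removing the trend turned the sign of 30 called changes, with sign taken against 0 and not against that median. In resting DTR+ against DTR- these became -0.11 for mt-Atp6, -0.35 mt-Atp8, -0.28 mt-Co2, -1.17 mt-Nd6, -0.74 mt-Ta, -0.46 mt-Te, -0.996 mt-Tm, -0.75 mt-Tp and -0.53 mt-Tq. At day 7 they became -0.23 for mt-Co2, -0.55 mt-Nd6 and -0.064 mt-Tq. In DTR- at day 1 they became 0.25 for mt-Atp6, 0.029 mt-Co1, 0.22 mt-Co3 and 0.23 mt-Nd6. In DTR+ at day 1 they became 0.18 for mt-Atp6, 0.22 mt-Atp8, 1.52 mt-Co2, 1.30 mt-Nd6, 0.95 mt-Ta, 1.22 mt-Tc, 0.73 mt-Te, 1.06 mt-Tf, 0.22 mt-Tm, 0.86 mt-Tp and 1.22 mt-Tt. The difference in day 1 response became 0.14 for mt-Co2, 1.07 mt-Nd6 and 0.51 mt-Tq. Of uncalled changes it turned resting mt-Nd5 to -0.69, resting mt-Nd3 to -1.64 and mt-Co1 under the antibody to 0.13.

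Without scaling, 1 mRNA was called in quadriceps at day 2 and 1 after training in DTR+, and resting mt-Nd5 became -0.19. DESeq2 called 1 in DTR- at day 7 and 2 after training in DTR+. With no filter the counts were 5 and 2 in tibialis anterior at days 2 and 7, 4 in DTR- at day 7, 1 for the difference at day 7, 3 after training in DTR+ and 1 between sedentary genotypes of the training experiment. Leaving out 1 library gave 0 to 1 called in quadriceps at day 1 and in tibialis anterior at day 2, 1 to 3 between resting muscles, 0 to 2 in DTR- at day 7, 0 to 1 for the difference at day 7 and 0 to 4 after training in DTR+. It moved mt-Nd5 between -1.02 and 0.046 and mt-Nd3 between -1.67 and 0.41 for the genotypes at day 7, mt-Nd5 between -0.028 and 0.213 for the difference in day 1 response, and aged mt-Cytb between -2.41 and 2.58 and mt-Nd5 between -0.21 and 0.89. Groups left with 1 library were assumed to vary like the others.

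With the replicate block, 3 of 4 mRNAs stayed called between the resting muscles and mt-Nd5 had -0.014 for the difference in day 1 response. In the DTR and aged experiments the numbers did not pair the libraries; the block gave 10 calls at rest, 9 at day 7, 8 and 10 at day 1 in DTR- and DTR+, and 8 for the difference in day 1 response. In aged mice, where deviations of same-numbered libraries correlated at -0.65, crossed pairs chosen after seeing the data also gave 0 calls. No paired analysis of days was possible in wild-type mice because the days share no animals. Of 254 uncalled changes not named, 140 changed sign under some setting and 17 passed the threshold under some setting.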
